A study of Rattus norvegicus with 6 samples.

Results

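The Rab GTPases are the largest branch of the Ras superfamily of small GTPases, and 48 of their genes carried a probe on the rat array used here. The members were all probes whose platform gene symbol is Rab, a number and at most 1 further letter, which leaves out interactors and GTPase activators such as Rab3gap and Rab11fip. They came to 49 probes for 48 genes, of 22517 probes and 13336 named genes on the array, with 2 probes for Rab6b alone. Expression was measured in granulation tissue, the mix of leukocytes, vessels and connective tissue cells that grows into a wound, taken from uncoated cellulose implants set subcutaneously in 10-week-old Sprague-Dawley animals. Tissue came from 3 rats at day 1 after implantation (rats 1, 2 and 3) and from 3 other rats at day 3 (rats 4, 6 and 7), with 1 Illumina BeadChip array per rat. All 6 rats carried the same kind of implant, and no treatment or genotype set the days apart in the labels, so the comparison is between time points, in different rats. The tissue was measured in bulk, so that fewer cells of a type and less RNA per cell cannot be told apart in any value below.

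A Rab protein is a switch that is active when it holds GTP and inactive when it holds GDP. Exchange factors load it with GTP on a given membrane, GTPase-activating proteins turn it off, and a dissociation inhibitor (GDI) carries the inactive form, anchored by its prenyl tails, back through the cytosol. In its active form each Rab recruits its own effectors, among them tethers, motors and coat adaptors, so that a given Rab marks a given step of membrane traffic: export from the endoplasmic reticulum (ER) and Golgi, uptake into early endosomes, recycling to the surface, delivery to lysosomes, or release of stored granules. In an early wound these steps serve phagocytes that take up debris, granulocytes and mast cells that release granules, and fibroblasts that secrete matrix.

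Values are log2 intensities after background correction with an offset of 50, each from the brightest probe of a gene, and differences are day 3 minus day 1 on that scale. A probe was tested if it lay above an estimated background of 103 (intensity), or 6.46 on the log2 scale, on at least 3 of the 6 arrays. This left 11650 probes, and 34 of the 48 Rab genes. Of these 34, 32 lay above background on all 6 arrays. Rab4b, a recycling Rab, did so on 3 of 3 day 1 arrays and 1 of 3 day 3 arrays, and Rab19 on 0 of 3 day 1 arrays and 3 of 3 day 3 arrays. The other 14 genes stayed between 5.87 and 6.68 on all arrays and were not tested. They were Rab3a, Rab3b, Rab3c and Rab27b of regulated secretion, Rab15 and Rab17 of recycling, Rab22a, Rab9b, Rab33b, Rab12, Rab23, Rab36, Rab39a and Rab40c, and the second Rab6b probe was equally dim. Rab17 exceeded background on 2 day 3 arrays and Rab15 on 1 day 1 array, and the others on 0 arrays.

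Between the days, 9 of the 34 tested Rab genes passed the limma test at an adjusted p of 0.05. Rab13, Rab34, Rab3d and Rab26 rose from day 1 to day 3, and Rab5a, Rab7b, Rab8a, Rab10 and Rab24 fell. The 9 genes are 26.5% of those tested, where 23.4% of all 11650 probes passed. The 4 that rose are 11.8%, against 13.1% of all probes, and the 5 that fell are 14.7%, against 10.4% of all probes. These shares lie near those of the whole array. On the log2 scale with the added offset, no Rab gene changed by 1 or more, as did 9.24% of all tested probes. The differences ran from -0.92 to 0.76. The offset makes the differences of dim probes smaller, so these sizes and the fold values below hold for that offset alone. Other offsets were not tried. Over the 34 genes the median difference was -0.17, beside -0.0064 over all tested probes, with 21 values below 0 and 13 above. The median size of the difference, whatever its sign, was 0.36, beside 0.24 over all tested probes. The arrays of the days did not overlap for 18 Rab genes (52.9%), and for 40.8% of all tested probes. Both the 18 and the 13 above 0 include Rab19. It entered the test through day 3 alone, so the background limit itself fixed its order of days.

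The counts rest on few arrays. In refits that each left out 1 array, 3 Rab genes rose and 1 fell when rat 1 was dropped, 1 rose and 0 fell when rat 2 was, and 6 rose and 11 fell when rat 3 was. Of the day 3 arrays, dropping rat 4 left 4 that rose and 3 that fell, dropping rat 6 left 0 and 2, and dropping rat 7 left 0 and 1. None of the 9 genes passed in each of these 6 refits. The number of probes past the test over the whole array moved too, from 2729 with all arrays. Dropping rats 1, 2 and 3 in turn gave 1878, 1304 and 3777 probes, and dropping rats 4, 6 and 7 gave 2060, 1339 and 1462. The refit counts of smaller groups below are to be read beside these totals.

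**Figure D1:**
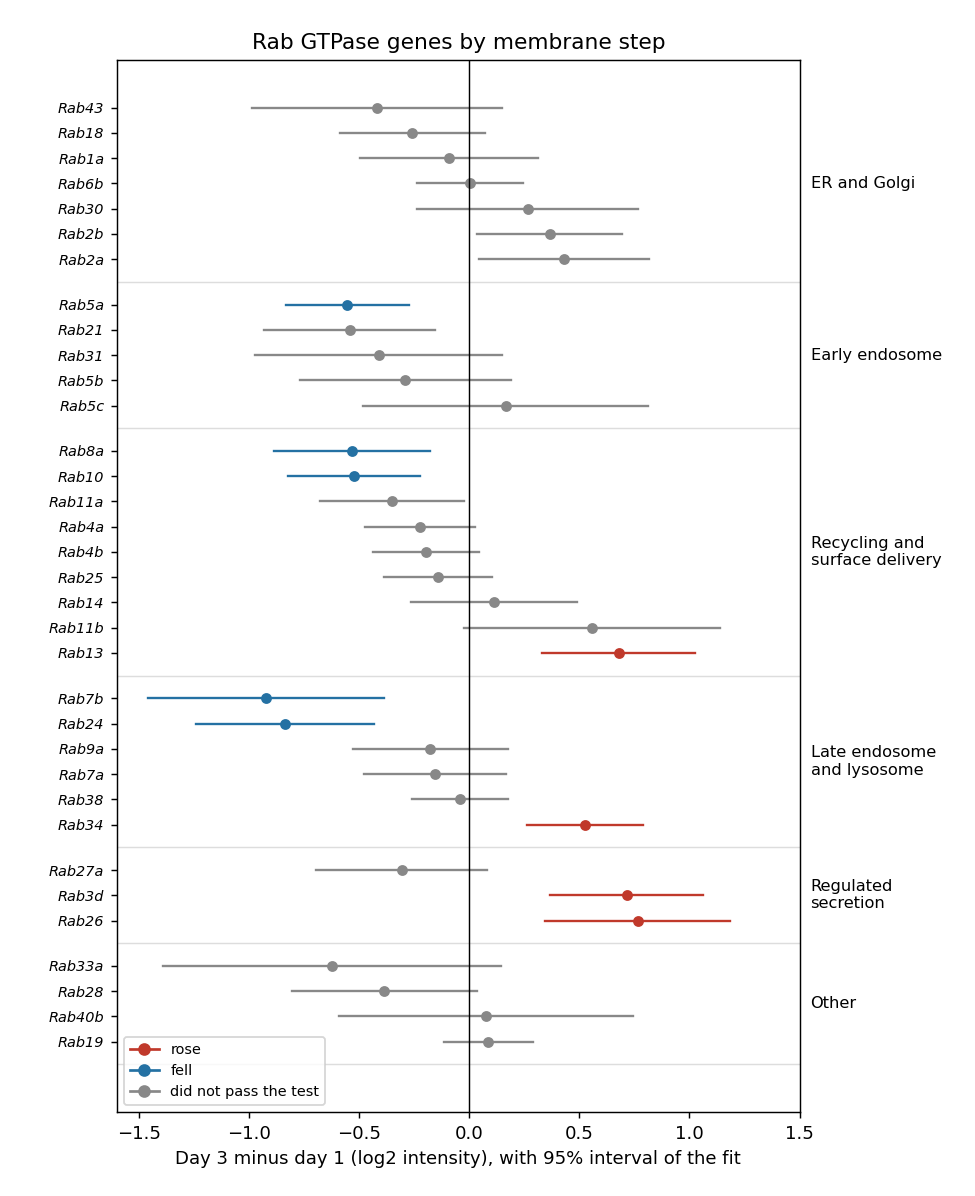
Day 3 minus day 1 difference (log2 intensity, horizontal axis) of the 34 tested Rab genes, grouped by the membrane step each is best known for; points are the fitted differences and lines their 95% intervals from 3 rats per day. Red genes rose and blue genes fell at an adjusted p of 0.05; no point lies beyond 1 in either direction, and none of the 7 ER and Golgi genes is coloured.

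For 40 of the 48 Rab genes RefSeq holds the 300 bases around the annotated gene start, 250 before it and 50 after, on the rat build GRCr8. The windows shown are those of the genes that fell most and rose most among the 7 changed genes with an entry, to show what the DNA at the start of a falling and of a rising Rab gene looks like. Capitals mark matches, on either strand, to any of 6 motifs: the E-box CACGTG, bound by factors such as TFEB of lysosome genes, the AP-1 motif TGANTCA, the GC box GGGCGG, the CCAAT box CCAAT, the cyclic AMP response element TGACGTCA and a kappaB motif. The Rab7b window lies at chr13:45673195-45673494, plus strand, that of Rab5a at chr9:6720877-6721176, plus strand, that of Rab3d at chr8:28725218-28725517, minus strand and that of Rab13 at chr2:177972720-177973019, plus strand. All are printed 5′ to 3′ on the strand of the gene.
Rab7b: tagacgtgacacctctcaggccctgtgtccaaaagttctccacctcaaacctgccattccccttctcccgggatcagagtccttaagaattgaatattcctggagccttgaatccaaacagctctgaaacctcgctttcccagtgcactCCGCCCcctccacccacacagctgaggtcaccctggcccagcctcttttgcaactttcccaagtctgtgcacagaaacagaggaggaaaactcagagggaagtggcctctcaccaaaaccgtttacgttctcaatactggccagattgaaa
Rab5a: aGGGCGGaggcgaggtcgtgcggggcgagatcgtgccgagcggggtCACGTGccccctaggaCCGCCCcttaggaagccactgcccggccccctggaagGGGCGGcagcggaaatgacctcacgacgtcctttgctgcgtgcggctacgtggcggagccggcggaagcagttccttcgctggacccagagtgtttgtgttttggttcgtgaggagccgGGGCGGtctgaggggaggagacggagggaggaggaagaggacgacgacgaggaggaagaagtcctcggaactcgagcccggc
Rab3d: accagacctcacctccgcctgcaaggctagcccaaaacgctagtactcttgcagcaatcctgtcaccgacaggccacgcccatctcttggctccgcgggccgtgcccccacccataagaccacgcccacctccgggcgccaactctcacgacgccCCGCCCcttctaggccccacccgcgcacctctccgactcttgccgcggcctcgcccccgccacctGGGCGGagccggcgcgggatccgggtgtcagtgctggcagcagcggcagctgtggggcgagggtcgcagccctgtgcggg
Rab13: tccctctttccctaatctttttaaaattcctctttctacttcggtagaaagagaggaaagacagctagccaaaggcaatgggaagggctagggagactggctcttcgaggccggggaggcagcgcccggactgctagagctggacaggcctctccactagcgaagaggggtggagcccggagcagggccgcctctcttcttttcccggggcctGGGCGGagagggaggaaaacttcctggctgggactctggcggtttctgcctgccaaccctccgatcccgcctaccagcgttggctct

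The 4 windows differ in base composition. Rab7b, the gene with the largest fall, had 52% G and C and 6 CG dinucleotides, while Rab5a had 67.7% and 32, Rab3d 71% and 29, and Rab13 59.7% and 14. The median over the 40 Rab windows was 63.3%, against 51.7% over 33469 windows of all genes. A GC box was in 32 of the 40 Rab windows (80%) and in 33.1% of all windows. It was in 4 of 4 windows of genes that fell (Rab5a, Rab7b, Rab8a and Rab10) and in 2 of 3 of genes that rose (Rab13 and Rab3d, not Rab34). The E-box CACGTG was in 3 of the 40 Rab windows (7.5%) and in 6.42% of all; among the changed genes it was in Rab5a alone. The AP-1 motif was in 4 Rab windows (10%, against 7.33%), of the changed genes in Rab34 alone. CCAAT boxes, in 14 Rab windows (35%, against 37.5%), were in Rab8a and Rab10 and in 0 of 3 genes that rose. The response element was in 1 Rab window (2.5%, against 1.83%) and the kappaB motif in 3 (7.5%, against 7.51%), in none of the changed genes. These matches describe the letters of the windows and do not show binding.

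Array facts touch these values. Across the tested probes rats 1 and 2 correlated at r = 0.991 and the day 3 arrays with each other at r = 0.987 to 0.992, while rat 3 correlated with rats 1 and 2 at 0.955 and 0.962. These correlations run across probes, which are not independent replicates. The summed level of 8 adipocyte markers was 16.92 in rat 3, against 15.08 in rat 1, 15.73 in rat 2 and 15.30 to 15.97 at day 3. Sums of 9 striated muscle markers were 14.01 to 14.21 in rats 2, 3 and 6 and 10.11 to 10.23 in rats 1, 4 and 7, and so did not follow the days. Of the markers of cells that the tissue should hold, 9 of 10 fibroblast genes rose, led by Col1a1, Col3a1 and Pcolce, and their sum went from between 15.85 and 16.13 at day 1 to between 17.07 and 17.30 at day 3. Of 11 neutrophil markers 9 fell, Retnlg, Pglyrp1 and Mmp8 most, while S100a9, Ltf, Cxcr1, Fpr1 and Ngp were too dim to test. Sums of the 11 were 15.24 to 16.13 and then 14.97 to 15.16. Lcn2 was instead higher at day 3 (0.72, adjusted p = 0.076, 1 of 6 refits). At day 3 its levels of 14.45 to 14.94 made up most of the sum. Of 8 mast cell markers 7 fell (4 without rat 2 or 7), Hdc, Tpsab1 and Cpa3 most, with sums of 12.33 to 13.05 and then 10.44 to 11.03, and Kit, Mcpt1, Mcpt4 and Mcpt10 were too dim. Macrophage markers split, with C1qa, C1qc, C1qb and Cd163 higher and Cd14 and Itgam lower at day 3, and sums of 14.28 to 14.75 and 14.18 to 14.87. Of 7 endothelial markers 5 rose, Vwf, Tie1 and Emcn most, with Cdh5 and Robo4 too dim to test (2 without rat 2 or 6, 3 without rat 7), with sums of 12.53 to 12.97 and then 13.43 to 13.83. Of 6 keratinocyte markers Krt1, Krt14 and Ivl were too dim to test. Krt10 and Tp63 were above background on 0 of 3 day 1 arrays and entered the test through day 3 alone, at least 1.22-fold and at least 1.18-fold higher there, and Pkp1 was above it on 1 of 3 day 1 arrays and 3 of 3 at day 3. Of 3 platelet markers 1, Ppbp, fell to below background by at least 3.11-fold (0 without rat 6 or 7), and 0 of 6 T and NK cell markers passed (3 fell without rat 3). The part of these cell types in the Rab differences was not tested.

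The Rabs of the ER and Golgi carry cargo along the early secretory route. None of the 7 tested genes of this group passed, where 23.4% of all probes did, and their median difference was 0.00374. Rab1a, which drives transport from the ER to the Golgi, differed by -0.093 (95% interval -0.50 to 0.31), and its day means were 11.24 and 11.14. Rab2a, which acts at the membranes between ER and Golgi, had levels of 11.85, 11.92 and 11.42 in rats 1, 2 and 3 and of 12.01, 12.17 and 12.31 in rats 4, 6 and 7. All 3 of its day 3 arrays lay above all day 1 arrays, with rat 3 lowest, but the difference of 0.43 (SE 0.16) gave an adjusted p of 0.105. Its close relative Rab2b differed by 0.37 (SE 0.14, adjusted p = 0.108), also without overlap of the days, and passed without rat 3 (adjusted p = 0.0105). Rab43, a Golgi Rab, stood at 8.13, 7.92 and 7.26 at day 1 and at 7.21, 7.26 and 7.58 at day 3. Its rat 3 value lay among those of day 3, so that the days overlapped, and the difference was -0.42 (SE 0.24, adjusted p = 0.265; 0.0136 without rat 3). The Golgi Rab Rab30 differed by 0.27 (95% interval -0.24 to 0.77), Rab6b of retrograde Golgi traffic by 0.00374 (-0.24 to 0.24) and Rab18, found on lipid droplets and the ER, by -0.26 (-0.59 to 0.071). Rab18 was 0.25 higher in rat 3 than in the mean of rats 1 and 2, which themselves stood apart at 11.45 and 11.69. Rat 3 had the highest adipocyte marker sum, and the part of adipocytes in the Rab18 value was not tested.

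Among the early endosome Rabs, 1 of 5 tested genes fell and 0 rose (20%, near the 23.4% of all probes), with a median difference of -0.41. When rat 3 was dropped 3 fell, and when rat 1, 2, 6 or 7 was dropped 0 did. Over all 11650 probes 1833 fell without rat 3, and 511 to 720 without rat 1, 2, 6 or 7. Rab5a, a master regulator of early endosome fusion, had levels of 7.88, 7.79 and 7.61 in rats 1, 2 and 3 and of 7.32, 7.21 and 7.09 in rats 4, 6 and 7. The lowest day 1 array, rat 3, still lay above the highest day 3 array, rat 4. Its mean went from 7.76 ± 0.14 to 7.21 ± 0.12 (SD, n = 3 rats per day), a fall of 0.55 (SE 0.12, 1.47-fold, adjusted p = 0.0184). It passed in 2 of 6 refits that left out 1 array each, with 0.0697 without rat 6 as the highest adjusted p. The other members of the Rab5 trio did not pass. Rab5b differed by -0.29 (95% interval -0.77 to 0.19) and Rab5c by 0.17 (-0.48 to 0.81), which turned to -0.15 without rat 3. Rab5c was 0.93 lower, and Rab5b 0.70 higher, in rat 3 than in the mean of rats 1 and 2. The change of Rab5c exceeded that of Rab5a by 0.72 (SE 0.30). An exact two-sided permutation test over the 6 arrays gave p = 0.1, the smallest that 3 rats against 3 allow, and 0.35 after adjustment over 7 pairs of related Rabs.

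Rab21, which guides integrins through early endosomes, stood just outside the threshold. Its levels were 12.14, 12.18 and 11.74 at day 1 and 11.61, 11.56 and 11.26 at day 3, and the days did not overlap. The difference was -0.54 (SE 0.16, adjusted p = 0.0538), and it passed without rat 3 (adjusted p = 0.00924) but in none of the refits without another array. Rab31, a relative of Rab22a that acts between the trans-Golgi network and endosomes, differed by -0.41 (SE 0.23, adjusted p = 0.269) and also passed without rat 3 alone (adjusted p = 0.0141), its rat 3 level lying 0.76 below the mean of rats 1 and 2.

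Of the 9 tested Rabs of recycling and delivery to the cell surface, 1 rose and 2 fell (33.3%, against 23.4% of all probes). Their median was -0.20. Dropping rat 1 gave 1 and 0, dropping rat 2 or 7 gave 0 and 0, dropping rat 3 gave 1 and 3, dropping rat 4 gave 2 and 0, and dropping rat 6 gave 0 and 1. Rab13, a Rab of junction assembly and surface delivery in epithelium and endothelium, had levels of 10.36, 10.05 and 9.90 at day 1 and 10.68, 10.92 and 10.76 at day 3. Its lowest day 3 array, rat 4, lay above its highest day 1 array, rat 1. The mean went from 10.11 ± 0.23 to 10.78 ± 0.12 (SD, n = 3), a rise of 0.68 (SE 0.15, 1.6-fold, adjusted p = 0.0195), and passed in 3 of 6 refits that left out 1 array each, with 0.0774 without rat 6 as the highest adjusted p.

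Both members of this group that fell, Rab8a and Rab10, are close relatives that carry vesicles from the Golgi and recycling endosomes to the plasma membrane. Rab10 is known for moving the glucose transporter GLUT4 in fat cells and TLR4 in macrophages to the surface. Rab10 stood at 10.64, 10.64 and 10.31 in rats 1, 2 and 3 and at 10.05, 10.04 and 9.92 in rats 4, 6 and 7. Rats 1 and 2 were nearly equal, rat 3 lay closer to the day 3 mean than to theirs, and the days did not overlap. The fall was 0.53 (SE 0.13, 1.44-fold, adjusted p = 0.027), present in 1 of 6 refits that left out 1 array each, with 0.0943 without rat 2 as the highest adjusted p. Rab8a stood at 9.39, 9.26 and 9.08 at day 1 and at 8.64, 8.96 and 8.53 at day 3, again without overlap. It fell by 0.53 (SE 0.15, 1.45-fold, adjusted p = 0.0432), passing in 2 of 6 refits that left out 1 array each, with 0.132 without rat 7 as the highest adjusted p, and its adjusted p was 0.0531 when no probe was filtered out and 0.0561 under a trended robust variance.

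The recycling endosome Rabs Rab11a and Rab11b lay on opposite sides of 0. Rab11a differed by -0.35 (SE 0.14, adjusted p = 0.115) and passed without rat 3 (adjusted p = 0.0391). Rab11b had levels of 9.003, 9.004 and 8.82 at day 1 and 9.01, 9.48 and 10.01 at day 3, a difference of 0.56 (SE 0.24, adjusted p = 0.155). Rat 4 lay only just above the day 1 arrays and rat 7 well above rat 6, so the size of the Rab11b difference depended on the day 3 array left out, being 0.80 and past the test without rat 4 (adjusted p = 0.0407) and 0.30 without rat 7. The change of Rab11b exceeded that of Rab11a by 0.91 (SE 0.34), with an exact two-sided permutation p = 0.1, the smallest possible, and 0.35 adjusted over the 7 pairs. Rab4a and Rab4b of fast recycling differed by -0.22 and -0.20, and the gap between their changes was 0.027 (SE 0.12, exact permutation p = 0.8). Rab14, which links the Golgi to endosomes, differed by 0.11 (95% interval -0.27 to 0.49) and Rab25, a relative of Rab11 in epithelium, by -0.14 (-0.39 to 0.10). The day means of Rab25 were 6.97 and 6.83, close to background.

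Late endosome and lysosome Rabs included Rab7b and Rab24, the members with the largest differences. Of 6 tested genes, 1 rose and 2 fell (50%, against 23.4% of all probes), with a median of -0.17. The counts were 0 and 1 when rat 1, 6 or 7 was dropped, and 0 and 0 when rat 2 was. Rab7b, which in macrophages sends the Toll-like receptors TLR4 and TLR9 toward degradation, stood at 10.01, 10.11 and 9.48 in rats 1, 2 and 3 and at 9.21, 8.59 and 9.03 in rats 4, 6 and 7. All day 1 arrays lay above all day 3 arrays, and rat 3 and rat 4 came closest to each other. Its mean went from 9.87 ± 0.34 to 8.94 ± 0.32 (SD, n = 3), a fall of 0.92 (SE 0.22, 1.9-fold, adjusted p = 0.0287). It passed in 2 of 6 refits that left out 1 array each, with 0.1 without rat 2 as the highest adjusted p. Rab7a, the general Rab of late endosomes and lysosomes, differed by -0.16 (95% interval -0.48 to 0.17). This interval overlaps that of Rab7b (-1.46 to -0.39). The change of Rab7b was 0.77 (SE 0.28) below that of Rab7a, with an exact two-sided permutation p = 0.2, and 0.467 over the 7 pairs.

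Rab24, an atypical Rab tied to autophagy, had levels of 12.34, 12.55 and 12.32 at day 1 and 11.66, 11.81 and 11.22 at day 3. The days stood well apart, with rat 7 lowest. Its mean went from 12.40 ± 0.13 to 11.57 ± 0.30 (SD, n = 3), a fall of 0.84 (SE 0.17, 1.79-fold, adjusted p = 0.0161), and it passed in 5 of 6 refits that left out 1 array each, with 0.0646 without rat 2 as the highest adjusted p. Rab34, which positions lysosomes, forms macropinosomes and serves early steps of cilium assembly, moved the other way, from 8.72, 8.73 and 8.91 in rats 1, 2 and 3 to 9.18, 9.35 and 9.41 in rats 4, 6 and 7. Every day 3 array lay above every day 1 array. The rise was 0.53 (SE 0.11, 1.44-fold, adjusted p = 0.0178), in 2 of 6 refits that left out 1 array each, with 0.0735 without rat 6 as the highest adjusted p. Rab9a, of the route from late endosomes back to the Golgi, differed by -0.18 (95% interval -0.53 to 0.18) and Rab38, of melanosomes and related lysosome-like organelles, by -0.042 (-0.26 to 0.18), at levels near background.

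In the group of regulated secretion 2 of 3 tested genes rose and 0 fell, where 13.1% of all probes rose, while the other 4 genes of the group with a probe were at background (dropping rat 2 or 4 gave 1 and 0, dropping rat 3 gave 2 and 1, and dropping rat 6 or 7 gave 0 and 0). Rab3d, found on the granules of exocrine cells and mast cells, had levels of 10.39, 10.12 and 9.98 at day 1 and 10.69, 10.98 and 10.97 at day 3. Rat 4 was the lowest day 3 array and still lay above rat 1, the highest of day 1. Its mean went from 10.17 ± 0.21 to 10.88 ± 0.17 (SD, n = 3), a rise of 0.71 (SE 0.15, 1.64-fold, adjusted p = 0.0163), and it passed in 3 of 6 refits that left out 1 array each, with 0.0682 without rat 6 as the highest adjusted p. The mast cell marker sum was lower on every day 3 array than on any day 1 array, and the part of mast cells in the Rab3d value was not tested.

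Rab26, another Rab of exocrine granules, stood at 7.38, 7.49 and 6.86 at day 1 and at 7.98, 7.95 and 8.10 at day 3. The day 3 arrays lay close together and above all of day 1, and rat 3 lay 0.58 below the mean of rats 1 and 2. Rab26 rose by 0.76 (SE 0.18, 1.7-fold, adjusted p = 0.024), and by 0.57 without rat 3, passing in 3 of 6 refits that left out 1 array each, with 0.0836 without rat 7 as the highest adjusted p. Rab27a, which docks granules in neutrophils, cytotoxic T cells and pigment cells, had day means of 7.01 and 6.70, close to background. Its difference of -0.31 (SE 0.16, adjusted p = 0.235) passed without rat 3 alone (-0.48, adjusted p = 0.0124). The neutrophil marker sum, most of it Lcn2 at day 3, was also lower at day 3, and its part in the Rab27a value was not tested.

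**Figure D2:**
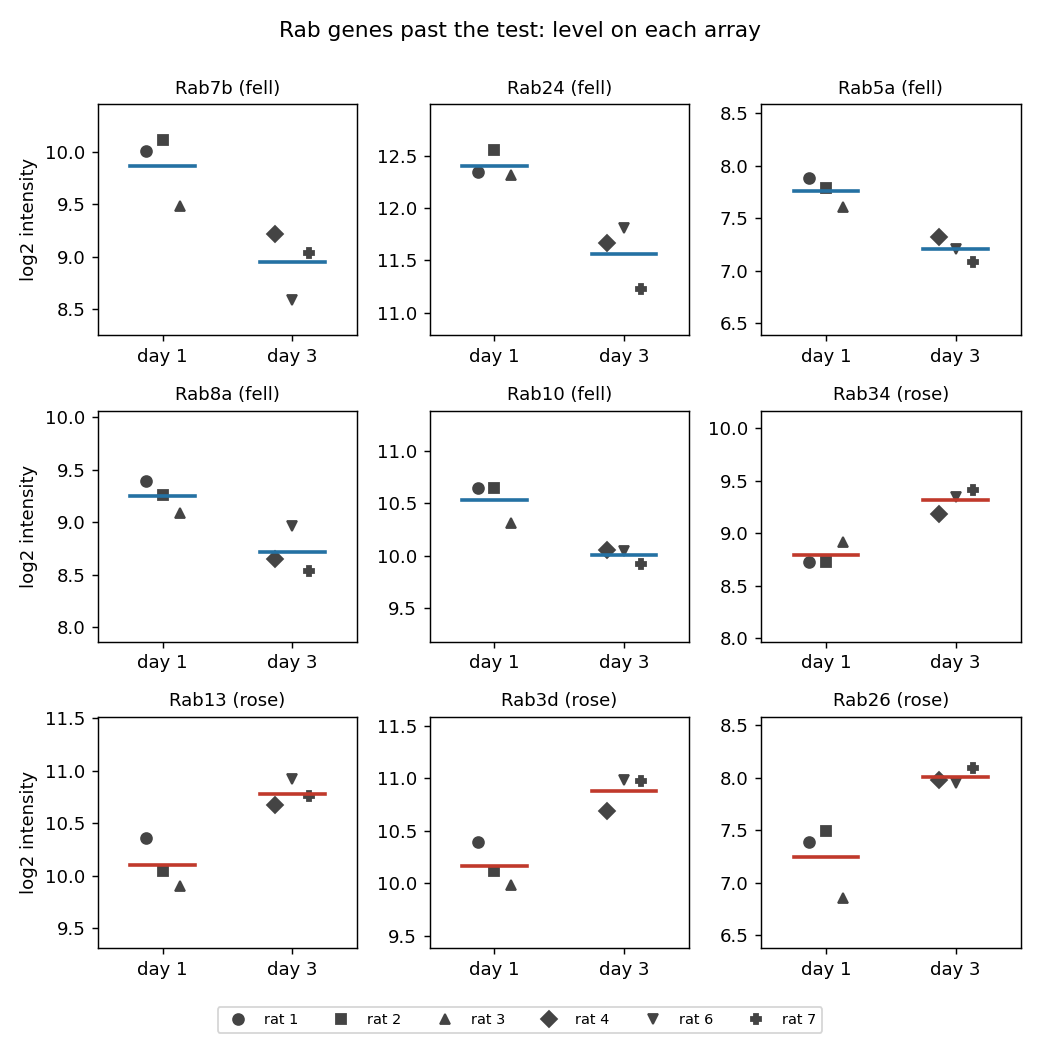
Level (log2 intensity, vertical axis, each panel spanning the same range) of the 9 Rab genes past the test on each of the 6 arrays; symbols are rats and bars are the means of 3 rats per day. In every panel the 3 arrays of one day lie above the 3 of the other, and rat 3 is the day 1 array nearest to day 3 for Rab7b, Rab24, Rab5a, Rab8a, Rab10 and Rab34.

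The 4 remaining tested genes did not pass, where 23.4% of all probes did. Rab33a, best known from brain and lymphocytes, had the largest difference of any gene short of the test. Its levels were 8.37, 8.19 and 7.11 at day 1 and 7.16, 7.42 and 7.22 at day 3, so that rats 1 and 2 lay far above the rest and rat 3 was the lowest of all 6 arrays. The difference was -0.62 (SE 0.32, adjusted p = 0.224), and it was -1.01 without rat 3 (adjusted p = 0.00155), past the test in that refit alone. The summed level of 6 T and NK cell markers was likewise lowest in rat 3, at 9.78 against 10.81 and 10.89 in rats 1 and 2 and 10.39 to 10.42 at day 3. The part of these cells in the Rab33a value was not tested. Rab28, linked to cilia of photoreceptors, differed by -0.39 (95% interval -0.80 to 0.034), and Rab40b, which carries a SOCS box and recruits a ubiquitin ligase, by 0.076 (-0.59 to 0.74). Rab40b was 1.02 higher in rat 3 than in the mean of rats 1 and 2; without rat 3 it was 0.42 higher at day 3 (adjusted p = 0.0241), and without rat 1 or 2 it was lower (-0.13 and -0.063). Rab19 stood between 6.42 and 6.45 at day 1, below the background limit, and between 6.50 and 6.53 at day 3.

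Rat 3 stood apart from rats 1 and 2 in some of these genes. It lay more than 0.5 from the mean of rats 1 and 2 for 10 of the 34 Rab genes (29.4%), as for 20.2% of all tested probes. It was lower for 8 of them, Rab33a, Rab5c, Rab43, Rab31, Rab7b, Rab26, Rab30 and Rab27a, and higher for Rab40b and Rab5b. For 15 of the 34 genes rat 3 was nearer to the mean of day 3 than to that of rats 1 and 2. The share over all tested probes was not counted. The 15 include genes such as Rab6b and Rab14, whose day 3 mean differed from that of rats 1 and 2 by only 0.042 and -0.046. Without rat 3 the genes that passed were the 9 above and 8 more: Rab11a, Rab21, Rab27a, Rab31, Rab33a and Rab43 fell, and Rab2b and Rab40b rose. Calls increased over the whole array too, with 3777 of 11650 probes past the test in that refit and 2729 with all arrays.

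**Figure D3:**
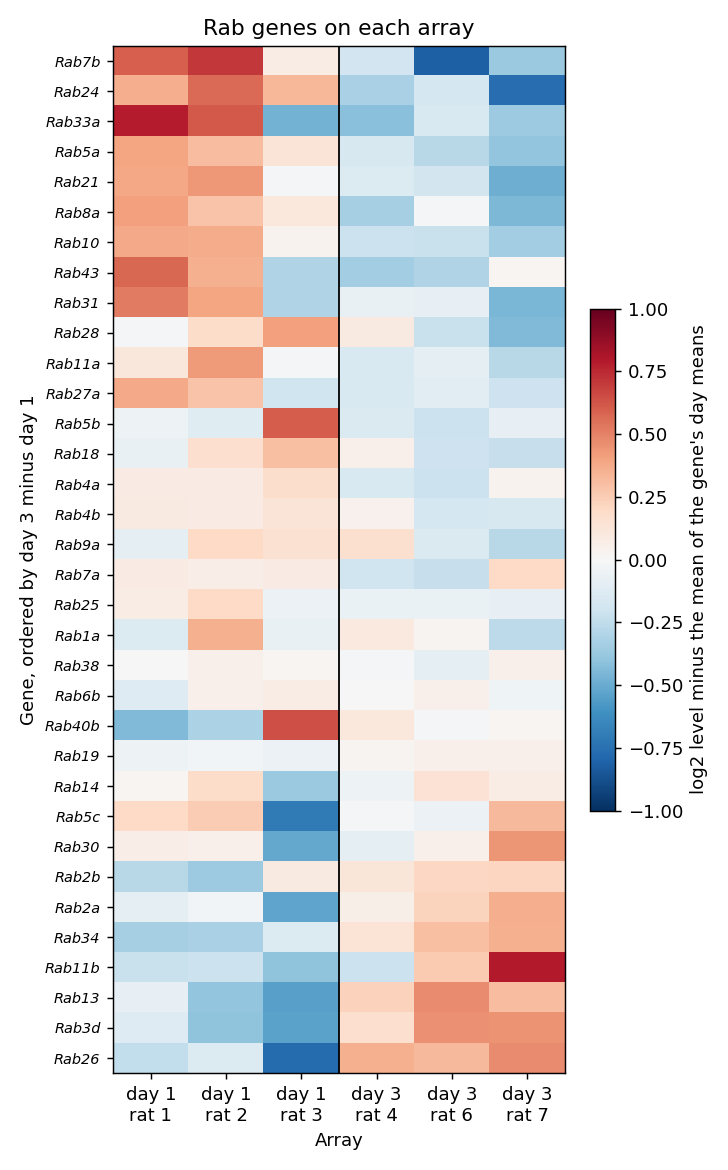
The 34 tested Rab genes (rows, ordered by difference) on the 6 arrays (columns); colour is the log2 level minus the mean of the gene's day 1 and day 3 means, from -1 (blue) to 1 (red). Rats 1 and 2 share their pattern, while rat 3 departs from them in Rab33a, Rab43, Rab31, Rab27a and Rab5c, where it is blue beside red, and in Rab5b and Rab40b, where it is red beside blue.

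The genes that load, unload and escort Rabs were counted beside them. All 6 genes with a probe for escort, prenylation and membrane delivery were tested, and 1 rose and 0 fell (16.7%, against 23.4% of all probes), with a median of 0.064 and the same counts after leaving out any array. Rabac1, a Golgi and ER membrane protein that binds prenylated Rabs, rose by 0.83 (SE 0.11, 1.78-fold, adjusted p = 0.00368, 6 of 6 refits). Gdi2 differed by 0.12, the escort protein Chm by 0.0029, and Rabggta and Rabggtb, subunits of the prenylating enzyme, by 0.013 and -0.035.

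Of 27 tested exchange factors 2 rose and 5 fell (25.9%, near the 23.4% of all probes), with a median of -0.081. Dropping rat 1 gave 2 and 2, dropping rat 2, 6 or 7 gave 1 and 1, and dropping rat 3 gave 4 and 6. Rabgef1, also called Rabex-5, which loads Rab5 and Rab21, fell by 0.87 (SE 0.12, adjusted p = 0.00459, 6 of 6 refits). Of the Rabs it loads, Rab5a fell, while Rab21 (-0.54), Rab5b (-0.29) and Rab5c (0.17) did not pass. The DENN-domain exchange factors Dennd2d and Dennd1c fell by 0.69 (SE 0.15, adjusted p = 0.0181, 0.0676 when rat 2 was left out) and by 0.66 (SE 0.15, adjusted p = 0.0248, 0.0938 when rat 6 was left out). St5, another DENN-domain gene, rose by 0.83 (SE 0.12, adjusted p = 0.00462, 6 of 6 refits), and Hps1, a subunit of the exchange factor for Rab32 and Rab38, by 0.63 (SE 0.14, adjusted p = 0.0238, 0.0853 when rat 2 was left out).

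Among 18 tested GTPase activators 1 rose and 1 fell (11.1%, against 23.4% of all probes), with a median of -0.095 (dropping rat 1, 4, 6 or 7 gave 0 and 1, dropping rat 2 gave 0 and 2, and dropping rat 3 gave 2 and 2). Tbc1d10c, a Tbc-domain protein of lymphocytes, fell by 1.17 (SE 0.20, adjusted p = 0.00841, 6 of 6 refits). Tbc1d9b rose by 0.59 (SE 0.14, adjusted p = 0.0239, 0.0824 when rat 7 was left out).

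Of 37 tested effectors and partners 6 rose and 4 fell (27%, near the 23.4% of all probes), with a median of 0.00173. The 4 include Rab11fip1, which was above background on 3 of 3 day 1 arrays and 0 of 3 day 3 arrays. It entered the test through day 1 alone, at least 1.42-fold higher there, so the background limit itself fixed its order of days. Dropping rats 1, 2 and 3 in turn gave 4 and 3, 2 and 3, and 7 and 6, and dropping rats 4, 6 and 7 gave 5 and 3, 2 and 2, and 1 and 3. Kif20a, a kinesin first found as a Rab6 partner and required for cell division, rose by 2.51 (SE 0.28, 5.71-fold, adjusted p = 0.00264, 6 of 6 refits), more than any Rab. Gorasp2, a stacking protein of the Golgi that works with Rab2, rose by 0.73 (SE 0.14, adjusted p = 0.0143, 0.062 when rat 6 was left out), and the Rab5 partner Rabep2 by 0.68 (SE 0.20, adjusted p = 0.0496, 0.154 when rat 2 was left out). Unc13d, the Rab27a partner that primes granules in leukocytes, fell by 1.19 (SE 0.22, adjusted p = 0.0123, 0.0536 when rat 6 was left out). Rilpl2, which binds phosphorylated Rab8 and Rab10, fell by 1.07 (SE 0.19, adjusted p = 0.0108, 6 of 6 refits). Lrrk2, the kinase that phosphorylates Rab8 and Rab10, fell by 1.00 (SE 0.17, adjusted p = 0.00933, 6 of 6 refits). Among the tested Rabs known as substrates of that kinase, Rab8a, Rab10 and Rab5a fell, Rab3d rose, and Rab5b, Rab5c and Rab43 did not pass.

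As a comparison from the same superfamily, 13 GTPases of the Arf and Sar families were tested, among them Arf-like proteins such as Arl1. Of these 4 rose and 1 fell (38.5%, against 23.4% of all probes), with a median of 0.26, where the tested Rabs had -0.17. Dropping rats 1, 2 and 3 in turn gave 3 and 1, 2 and 0, and 4 and 3. Dropping rat 4 gave 3 and 2, and dropping rat 6 or 7 gave 3 and 0. Arl1, of the trans-Golgi network, rose by 0.91 (SE 0.13, adjusted p = 0.00472, 6 of 6 refits). Sar1a, which starts the COPII coat that buds from the ER, rose by 0.86 (SE 0.11, adjusted p = 0.00401, 6 of 6 refits), and its relative Sar1b fell by 0.63 (SE 0.13, adjusted p = 0.0177, 0.0677 when rat 2 was left out). Arf2, of the Golgi coat group, rose by 0.76 (SE 0.15, adjusted p = 0.0154, 0.0572 when rat 2 was left out). No test of the difference between the Arf and Rab lists was made.

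**Figure D4:**
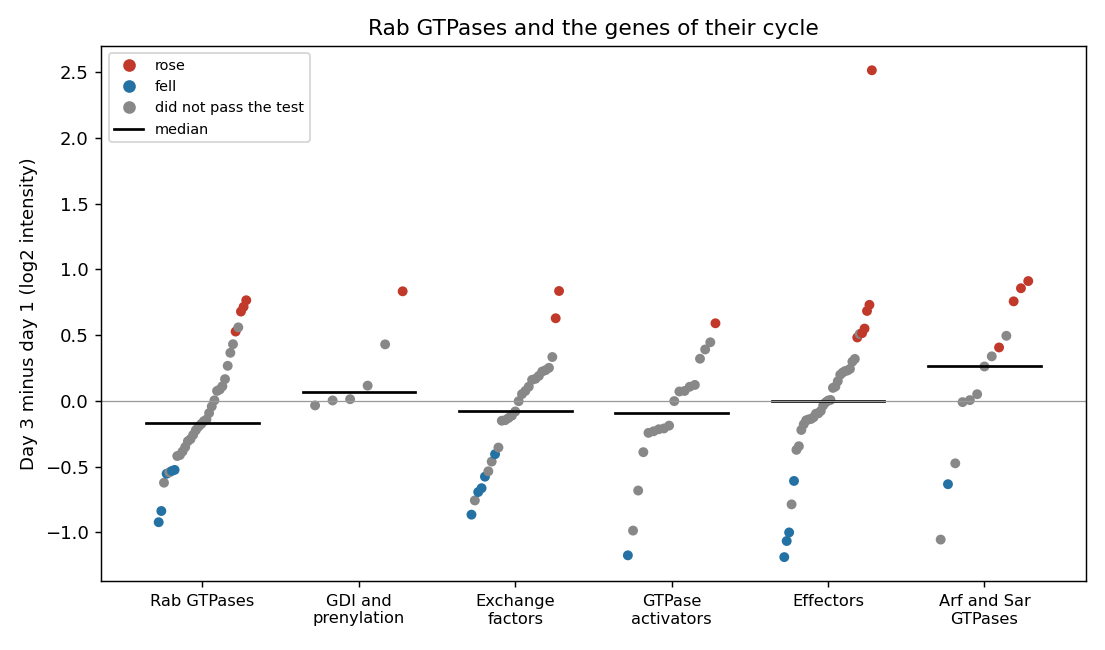
Day 3 minus day 1 difference (log2 intensity, vertical axis) of each tested gene among the Rab GTPases, the genes of their cycle and the Arf and Sar GTPases; points are genes and black bars are list medians. Changed genes lie on both sides of 0 in 5 of the 6 lists, and the highest point is the kinesin Kif20a at 2.51.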

How the data were processed

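The deposited values are Illumina probe intensities on a linear scale, quantile-normalised by the authors: sorted, the 6 arrays differ by more than 0.01 at 61 of 22517 ranks, with a median of 104 on each. Limma is the tool listed in the submitters' processing notes, and the background setting at the scanner is not given in the sources used here. The non-normalised table was not used, since its 12 columns match no sample label. Probe symbols came from the platform annotation (13787 probes with 1 symbol, 0 with several, 8730 with none).

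Intensities were corrected by normexp (offset 50), quantile-normalised and log2-transformed. The background limit was taken at percentile 95 of a normal curve fitted to the values below the mode of 87.2. Probes above it on at least 3 arrays were tested with limma 3.58.1 in R 4.3.3 (lmFit, eBayes, two-sided), adjusted by Benjamini and Hochberg over all 11650, on 3 against 3 different rats per the labels. A gene is its brightest tested probe. A change to or from below background is given as a bound, with values under the limit of 6.46 raised to it. Marker sums are log2 of summed normalised intensities over the tested markers. The fit was tried on simulated log2 values of the tested probes with known changes. The background correction, normalisation and filter were not tested in this way. The number of arrays limits the precision.

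Every tested Rab gene is named; those past the test and the 5 with the largest difference among the rest get all array values. Of other lists, up to 3 members per direction are named. Chm, Gdi2, Rabggta, Rabggtb, Rab11fip1, Cd163 and Lcn2 were named after their values were seen. The members and lists were chosen with earlier results of these data known. Alternatives were no background correction, cyclic loess, no filter, a stricter filter (percentile 99), a trended robust variance, array weights, values raised to background, all probes of a gene averaged, and each array left out, with the tested probes kept.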

Additional observations from a re-analysis of the deposited data

How the results depend on the processing

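With array weights 4101 probes passed and 11 Rab genes fell, and the Rab5c difference turned to -0.14. Without a filter on dim probes the Rab median was -0.068, over all 48 genes. Leaving out 1 array at a time gave 1304 to 3777 probes past the test, 0 to 6 Rab genes that rose and 0 to 11 that fell, and a Rab median from -0.19 to -0.14. Differences that changed sign in these refits were those of Rab1a (-0.18 to 0.060), Rab5c (-0.15 to 0.33), Rab6b (-0.061 to 0.042), Rab14 (-0.046 to 0.23) and Rab40b (-0.13 to 0.42), none of which passed with all arrays. The cause was not tested; each such refit has fewer samples. The counts of Rab genes that rose and fell stayed within 1.5 times of 4 and 5 without background correction, with cyclic loess, with either filter, with a trended robust variance, with values raised to background and with probes averaged, and Rab21 passed with cyclic loess (-0.62, adjusted p = 0.0283). No paired analysis was possible because the days share no rat numbers. The median of all probes moved by less than 0.1 under every scaling, and signal near background limits Rab4b, Rab19, Rab25, Rab27a and Rab38.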
